A study of Mus musculus with 74 samples.

Results

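Total H3.3 was measured by chromatin immunoprecipitation and sequencing (ChIP-seq) in primary mouse macrophages grown from bone marrow, before lipopolysaccharide (LPS) and after 60 min of it. There was 1 library at 0 min and 1 at 60 min, of 74 samples in the series. The authors' tables list one H3.3 signal per gene and time for 196 genes, which are all the genes in either of their 2 tables of primary macrophages. The tables shared 192 genes with identical values, 1 gene (Ccrn4l, now Noct) was only in the table named for 60 min, and 3 (Gm6377, Gm14023 and Gm16712) were only in that named for 120 min. Of the 196 genes, 189 were protein coding and 2 were microRNA genes.

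The unstimulated group was untreated macrophages, and the stimulated group was macrophages given LPS of S. typhosa at 100 ng/mL for 60 min. The only RNA libraries of primary macrophages in the series carry DMSO in their titles, and the H3.3 libraries do not. The RNA and the H3.3 values set side by side below may therefore come from cells treated differently. No genotype, strain, age or pooling of animals is given in the sources used here, and both groups carry the same label for tissue. None of the 22 marker names in 5 lists (macrophage, B cell, T and NK cell, fibroblast, neutrophil) is among the 196 genes, so the labelled cell type could not be checked against its markers. None of the 12 H3.3 genes and H3.3 chaperones on the list was among them either. With 1 library per time there is no measure of replicate error, and every ratio below is a description of these 2 libraries. The ChIP depth is unknown, and the authors' scaling and the window behind each gene's signal are not given in the sources used here.

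H3.3 is a replacement form of histone H3. Unlike the canonical forms, which enter chromatin when DNA is copied, it can be put into chromatin at any time, by chaperones that include HIRA at active genes and ATRX with DAXX at silent repeats. Its serine 31 is not found in canonical H3 of mammals, so phosphorylated serine 31 (H3S31ph) can be carried only by H3.3. LPS is a bacterial product sensed by TLR4, which switches on inflammatory genes in macrophages within minutes through NF-kB, MAP kinases and interferon regulatory factors.

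The 196 genes are not a sample of the genome. In the authors' deposited table each had an adjusted p of at most 0.0496 and an absolute RNA log2 fold change of at least 1.27 with LPS, and 190 were higher and 6 lower. No gene without an RNA change is listed. A difference in scale or enrichment between the 2 H3.3 libraries and a change at these genes therefore cannot be told apart. A difference in enrichment could also alter the ratios gene by gene. The comparisons among the 196 genes are those the tables allow, and they share this limit.

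H3.3 signal was higher at 60 than at 0 min at 194 of the 196 genes. At 0 min the signal ran from 0.338 to 1.99 with a median of 1.23, and at 60 min it ran from 0.878 to 3.96 with a median of 2.31. The ratio of 60 over 0 min had a median of 1.96 and quartiles of 1.60 and 2.20. It was at least 2 at 87 genes, which is 44.4% of all listed genes, at least 2.5 at 20, and between 1.5 and 2.5 at 136. Only 2 genes were lower at 60 min, 1.02% of those listed, and 16 had a ratio below 1.25. The 2-fold line passed through a dense stretch, with Dusp5 at 1.98, Cish at 1.99 and F3 at 1.99 just under it and Id3 at 2.001, Fosl2 at 2.01 and Cd14 at 2.01 just over it.

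**Figure D1:**
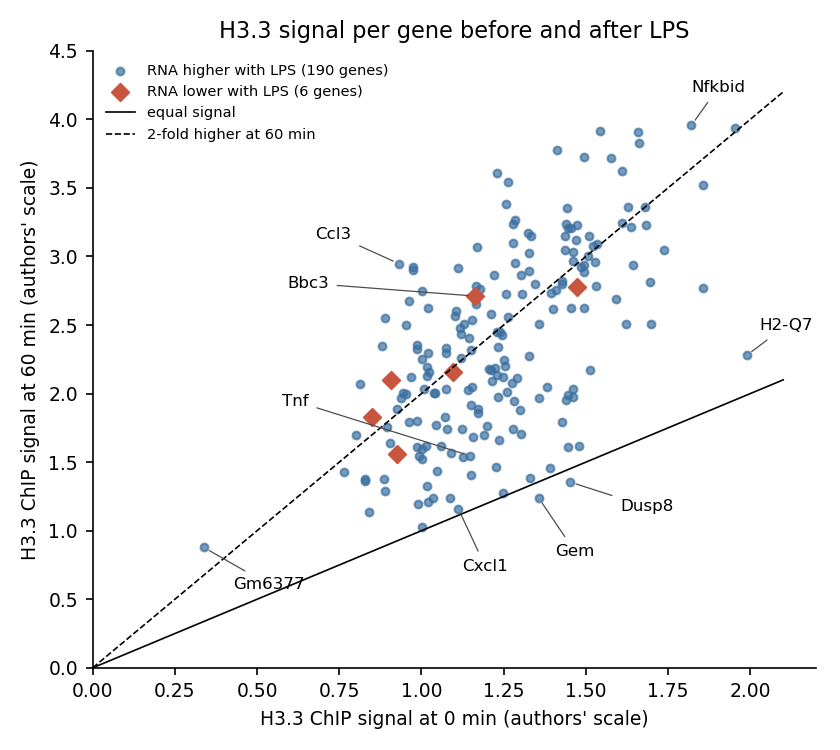
Each point is 1 of the 196 genes, with its H3.3 signal at 0 min on the horizontal axis and at 60 min on the vertical axis, both in the authors' scale. The solid line is equal signal and the dashed line a 2-fold higher signal at 60 min, red diamonds are the 6 genes with lower RNA, and only Gem and Dusp8 lie under the solid line.

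The spread among genes was wider at 60 min. The upper quartile was 1.38 times the lower at 0 min and 1.59 times at 60 min. The order of the genes was partly kept, with a Spearman correlation across genes of 0.59 between the 2 times (n = 196). The ratio was nearly unrelated in rank to where a gene started (-0.09 with the signal at 0 min). Genes share their libraries and some share a locus, so they are not replicates of each other.

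The top of the H3.3 scale after LPS was held by regulators and chemokines. Nfkbid, which encodes an atypical IkB protein, went from 1.82 at 0 min to 3.96 at 60 min, the highest signal of all. Tnfaip2, an NF-kB target, went from 1.95 to 3.93. The chemokine genes Ccl12 and Ccl2 went from 1.54 to 3.91 and from 1.66 to 3.91. Zc3h12a, which encodes the RNase Regnase-1 that degrades inflammatory mRNAs, went from 1.66 to 3.83. H2-Q7, a non-classical MHC class I gene, had the highest H3.3 signal of the 196 before LPS, at 1.99, yet only 2.28 at 60 min. H2-Q7 belongs to a family of near-identical genes, so its reads may not be assigned with certainty. Gm6377, a predicted gene, was lowest at both times, at 0.338 and 0.878, although its ratio was 2.59.

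The ratio was largest for Ccl3, which encodes the chemokine MIP-1 alpha, with 0.931 at 0 min and 2.95 at 60 min, a ratio of 3.17. Among the next was Fam26f (now Calhm6), at 0.973 and 2.93 (3.01), a gene named here after its values were seen. Tlr2, a receptor for bacterial lipoproteins, had 0.974 and 2.90 (2.98). Rel, the NF-kB subunit c-Rel, had 0.890 and 2.55 (2.86). Ccl3, Fam26f, Tlr2 and Rel all began below the median of all genes and ended above it. At the other end stood Gem, a small GTP-binding protein, with 1.36 at 0 min and 1.24 at 60 min (0.913), and Dusp8, a phosphatase of MAP kinases, with 1.45 and 1.35 (0.933). Pde4b, a phosphodiesterase that degrades cyclic AMP, had 1.001 and 1.03. All 3 had an RNA log2 fold change above 0 in the authors' deposited table, 7.16 for Gem, 1.99 for Dusp8 and 4.51 for Pde4b.

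The lists of genes by function below hold 115 of the 196 genes and were chosen with earlier results of these data known. The chemokine list had 12 of its 20 members listed, with a median H3.3 ratio of 2.14 and 7 at or above 2. Its members spanned almost the whole range of ratios. Ccl9 went from 1.26 to 3.38 (2.69) and Ccl4 from 1.41 to 3.78 (2.67). Ccrl2, which encodes a receptor that binds chemerin, went from 1.33 to 2.90 (2.18), and Cxcl10, an interferon-inducible chemokine that draws T cells, from 1.02 to 2.13 (2.10). Ccl17 had 1.49 and 2.63 (1.76). The neutrophil chemokines lay lower, with Cxcl2 at 1.15 and 1.92 (1.67), Cxcl3 at 1.04 and 1.24 (1.20) and Cxcl1 at 1.11 and 1.16 (1.04).

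Divided by family, a split made after the values were seen and given without a test, the 7 listed CC chemokines had a median H3.3 ratio of 2.54 and the 4 listed CXC chemokines 1.43. The order of the medians was the opposite for the RNA. The median RNA log2 fold change in the authors' deposited table was 2.90 for the CC and 7.78 for the CXC genes. The median H3S31ph ratio was 4.79 at the CC genes and 11.2 at the CXC genes, of which Cxcl2 (29.8) and Cxcl1 (19.4) lay above the CC median and Cxcl10 (3.06) and Cxcl3 (1.63) below it. H3K27 acetylation at 0 min, a mark of active promoters and enhancers, had a median signal of 1.73 at the CC and 1.04 at the CXC genes.

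**Figure D2:**
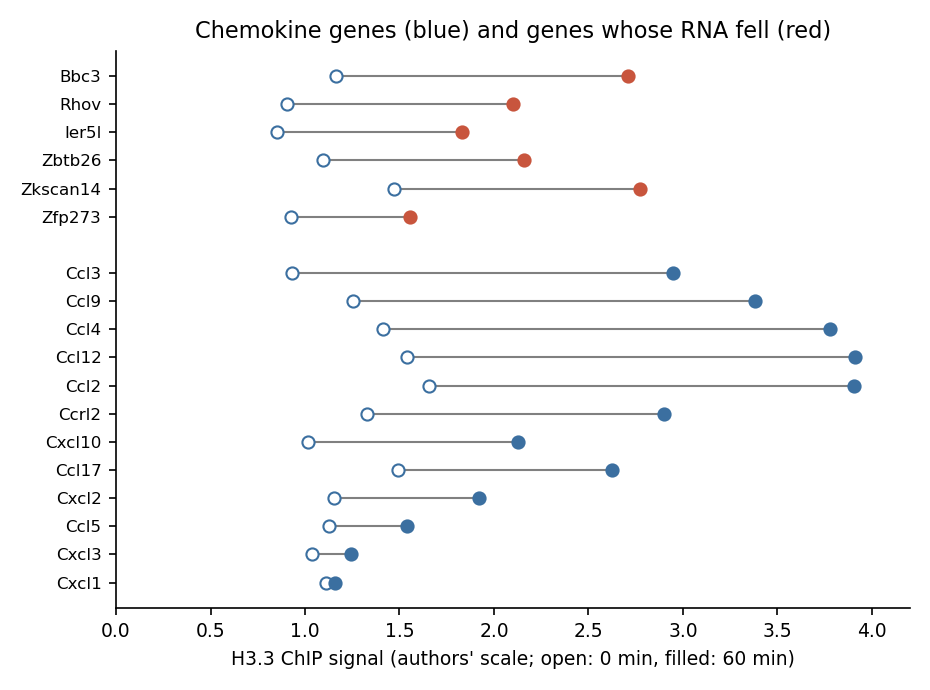
H3.3 signal in the authors' scale at 0 min (open circles) and 60 min (filled circles) for the 12 listed chemokine genes (blue) and the 6 genes with lower RNA after LPS (red), 1 library per time. Among the chemokines Ccl12, Ccl4 and Ccl2 show the longest spans on this axis and Cxcl1 almost none, while the ratio was largest for Ccl3, Ccl9 and Ccl4. All 6 red genes lie to the right of their open circle.

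The sequences upstream of both extremes of the chemokine list, and of Bbc3, whose RNA was lower with LPS, are given so that they can be set beside their H3.3 ratios. Each is the 250 bases before the gene's start in RefSeq GRCm38.p6 (the mm10 assembly), 5′ to 3′ on the gene's strand, with CG dinucleotides in capitals. For Ccl3 it is chr11:83649379-83649628 on the minus strand, for Cxcl1 chr5:90890995-90891244 on the plus strand and for Bbc3 chr7:16309333-16309582 on the plus strand. The Bbc3 window lies inside the gene's annotated span (chr7:16308398-16318334), and ends just before the transcript start the promoter table uses. The Ccl3 window lies inside the annotated span of Ccl4 (chr11:83648624-83664683), which overlaps Ccl3.
Ccl3: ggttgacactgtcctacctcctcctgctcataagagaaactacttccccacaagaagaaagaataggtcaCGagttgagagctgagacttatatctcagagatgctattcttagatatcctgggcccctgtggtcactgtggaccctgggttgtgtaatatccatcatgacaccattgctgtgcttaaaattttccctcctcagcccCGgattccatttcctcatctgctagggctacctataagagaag
Cxcl1: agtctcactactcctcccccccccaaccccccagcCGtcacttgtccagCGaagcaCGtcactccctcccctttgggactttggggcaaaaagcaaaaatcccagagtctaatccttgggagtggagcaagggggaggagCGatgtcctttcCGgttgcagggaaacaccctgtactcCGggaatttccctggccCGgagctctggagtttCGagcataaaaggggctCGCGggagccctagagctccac
Bbc3: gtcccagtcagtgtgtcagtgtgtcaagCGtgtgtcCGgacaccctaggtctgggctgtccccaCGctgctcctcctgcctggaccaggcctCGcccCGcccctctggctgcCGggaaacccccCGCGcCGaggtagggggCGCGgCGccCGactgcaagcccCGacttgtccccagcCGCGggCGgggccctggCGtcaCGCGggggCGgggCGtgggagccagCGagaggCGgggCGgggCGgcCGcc
The Ccl3 window holds 2 CG dinucleotides, the Cxcl1 window 10 and the Bbc3 window 27, while their H3.3 ratios were 3.17, 1.04 and 2.33. Over all genes CG dinucleotides were counted in a longer window, the full 300 bases of the promoter table, which adds 50 bases after the start and in which Ccl3 has 3, Cxcl1 10 and Bbc3 34. In that window the median was 15 over the 151 listed genes with an entry and 7 over all 27025 genes of the table. The number in it had a Spearman correlation of -0.04 with the H3.3 ratio and of 0.16 with the signal at 0 min (n = 151).

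Motifs were searched only in the 250 bases before the start, for the same 151 genes and for all 27025. The NF-kB site, in its usual consensus, was found on either strand in 25.8% of listed genes and 7.03% of all genes, with median H3.3 ratios of 1.97 with and 1.96 without it. TGACTCA, the AP-1 site, was found on either strand in 6.62% of listed and 4.43% of all genes, with median H3.3 ratios of 2.03 with and 1.95 without it. TATAAA on the gene's strand was found in 13.9% of listed and 8.13% of all genes, with 1.90 with and 1.96 without it. A match is a run of letters and not a bound site.

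Of the cytokines and growth factors, 13 of 28 were listed, with a median H3.3 ratio of 1.66, and 3 were at or above 2. These were Gdf15 at 1.58 and 3.72 (2.36), Il1a at 1.18 and 2.77 (2.35) and Il23a, which encodes the p19 subunit of interleukin 23, at 1.44 and 3.35 (2.32). The pyrogenic cytokine Il1b had 1.23 at 0 min and 1.98 at 60 min (1.60). Il6, a driver of the acute phase response, had 1.14 and 2.03 (1.78), and the anti-inflammatory Il10 had 1.24 and 2.45 (1.97). Ifnb1 had 1.20 and 1.76 (1.47), and Il12b 1.06 and 1.62 (1.53). Tnf, the gene with the highest RNA mean of the 196 in the authors' deposited table, went only from 1.15 to 1.55 (1.35).

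The TNF superfamily list had 5 of 17 members listed, a median H3.3 ratio of 1.36 and none at or above 2. Besides Tnf these were Cd40, a costimulatory receptor (1.24 and 1.66), Traf1, an adaptor of TNF receptors (1.44 and 1.95), and the ligand genes Tnfsf9 (1.62 and 2.50) and Tnfsf4 (0.904 and 1.64). All 5 ratios, 1.35 to 1.81, lay below the median of all genes. Their median RNA log2 fold change in the authors' deposited table was 4.41.

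The NF-kB list, of subunits, IkB proteins and feedback regulators, had 19 of 36 members listed with a median ratio of 2.12, and 12 were at or above 2. Within it Rel (2.86) and the kinase gene Map3k8, at 1.26 and 3.54 (2.81), were highest. Malt1, a protease and scaffold upstream of NF-kB, had 1.17 and 3.07 (2.62). The feedback inhibitor Nfkbia had 1.25 and 2.43 (1.95) and Tnfaip3, which encodes A20, 1.44 and 3.05 (2.12). Nfkbiz, an IkB protein that works in the nucleus, had 0.985 and 1.61 (1.64), and Relb 1.12 and 1.74 (1.55).

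Among the immediate early transcription factors and related early response genes 18 of 40 were listed, with a median ratio of 2.09 and 12 at or above 2. Klf6 went from 0.962 to 2.67 (2.78). The AP-1 genes Fos and Junb had 1.28 and 2.95 (2.30) and 1.13 and 2.51 (2.22). Egr1, a zinc finger factor, had 1.26 and 2.20 (1.75), and its relative Egr3 1.30 and 1.70 (1.31). Nr4a1, a nuclear receptor without a known hormone ligand, had 1.43 and 1.80 (1.26).

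Of the dual-specificity phosphatases and kinase inhibitors 9 of 17 were listed, with a median of 1.96 and 3 at or above 2. Their ratios ran from 0.933 to 2.35, with none among the 20 genes at or above 2.5. Dusp4 had 1.30 and 2.87 (2.20), Dusp2 1.39 and 2.74 (1.96) and Dusp1 1.53 and 2.96 (1.94), whereas Dusp14 had 1.25 and 1.28 (1.02). Trib1, a pseudokinase, was highest at 1.22 and 2.86 (2.35).

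The mRNA decay list had 6 of 15 members listed, a median of 2.11 and 4 at or above 2, among them Zfp36, which encodes tristetraprolin, at 1.45 and 3.21 (2.20). The survival and apoptosis list had 8 of 20 listed, and its median of 2.26 was the highest of the lists, with 7 at or above 2. Phlda1 went from 1.002 to 2.74 (2.74) and Cflar, an inhibitor of caspase 8, from 1.28 to 3.24 (2.53). Bcl2a1b had 0.952 and 2.50 (2.63), and it has near-identical copies between which its reads may be split.

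The interferon-regulated genes had 7 of 37 listed, a median of 2.10 and 4 at or above 2, from Isg15, a ubiquitin-like protein, at 1.02 and 2.63 (2.57) down to H2-Q7. The list named for metabolic and prostaglandin enzymes had 6 of 24 listed with a median of 1.96 and 3 at or above 2. These 3 were Plau (2.50), Plk2 (2.40) and Slc2a6 (2.02), which are not such enzymes, and the other members were lower. Ptgs2, the inducible cyclooxygenase, had 0.828 and 1.37 (1.65), Irg1 (now Acod1), which makes itaconate, 1.07 and 1.83 (1.71), and Sod2, the mitochondrial superoxide dismutase, 1.08 and 2.03 (1.89). Adhesion, costimulation and surface receptor genes had 16 of 38 listed with a median of 1.91 and 5 at or above 2. Icam1 had 1.49 and 2.94 (1.97), Cd83 1.08 and 2.33 (2.17) and Icosl 1.48 and 1.61 (1.09). The SOCS and cytokine signalling list had 4 of 22 listed, a median of 1.89 and 1 at or above 2, the receptor gene Il10ra (2.25). Socs3, an inhibitor of cytokine signalling, had 1.64 and 2.94 (1.79).

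**Figure D3:**
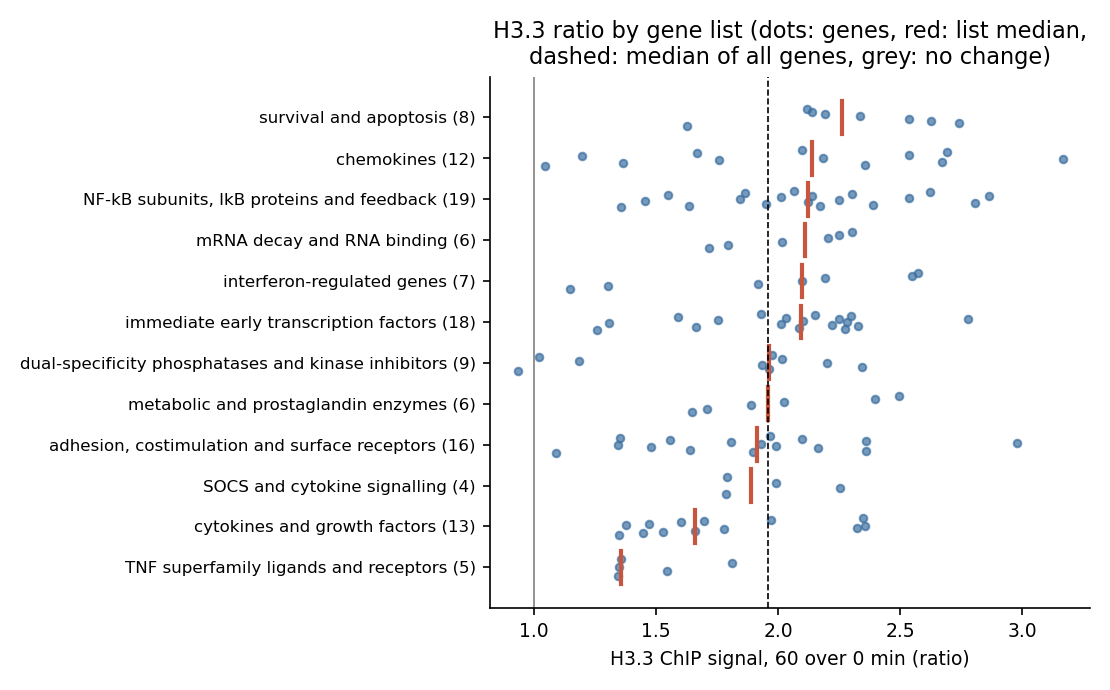
The horizontal axis is the ratio of H3.3 signal at 60 over 0 min, with 1 dot per gene and 1 row per gene list (listed members in brackets), and dots are offset vertically only for legibility. Red bars are list medians, from 1.36 for the TNF superfamily to 2.26 for survival and apoptosis, around the dashed median of all 196 genes at 1.96, and the chemokine list reaches from 1.04 to 3.17.

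The microRNA genes Mir221 and Mir222 stand 504 bases apart on the X chromosome. Their products are shown because they share a seed, bases 2 to 8 in capitals, by which a microRNA pairs with its targets. The mature sequences are from RefSeq GRCm38.p6.
miR-221-3p: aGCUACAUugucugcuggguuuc
miR-222-3p: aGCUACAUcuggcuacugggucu
The shared seed is GCUACAU. H3.3 signal was 0.944 at 0 min and 2.01 at 60 min over Mir221 (ratio 2.13) and 0.895 and 1.75 over Mir222 (1.96). H3S31ph signal at 60 min was 66.6 over Mir221 and 65.1 over Mir222. The values of so close a pair are not independent. These ChIP reads come from DNA and do not measure the mature microRNAs.

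Neighbouring genes did not always share their H3.3 ratio. There were 23 pairs of listed genes within 200000 bases of each other, formed by 26 genes, and 5 pairs overlapped. ChIP reads in the stretch that overlapping genes share cannot be assigned to 1 of them. The median fold between the ratios of a pair was 1.19, against 1.26 over all 19110 pairs of listed genes. On chromosome 11, Ccl3, Ccl4 and Ccl9 had ratios of 2.67 to 3.17, and Ccl3 and Ccl4 are one of the overlapping pairs. Ccl5, which encodes RANTES and lies 42398 bases from Ccl9, went from 1.13 to 1.54 (1.36), so that its ratio and that of Ccl9 were 1.97-fold apart. In the chromosome 5 cluster Cxcl1 and Cxcl2 lie 10777 bases apart and their ratios differed by 1.60-fold.

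The H3.3 ratio was nearly unrelated in rank to the RNA log2 fold change, taken with its sign. All 196 genes were listed for an RNA change, so this describes only differences among such genes. The Spearman correlation across the 196 genes between the H3.3 ratio and the RNA log2 fold change of the authors' deposited table was -0.06, and that of the H3.3 signal at 60 min was 0.00. In 4 groups of 49 genes ordered from the lowest to the highest RNA log2 fold change of the authors' deposited table, the median H3.3 ratio was 1.85, 2.03, 1.97 and 1.90. The numbers at or above 2 were 18, 29, 22 and 18. Genes with a very large RNA change could lie at the bottom of the H3.3 scale. Cxcl1, at chr5:90891245-90893121 of mm10, had an RNA log2 fold change of 9.86 in the authors' deposited table and an H3.3 ratio of 1.04. Ccl3, at chr11:83647843-83649378, had 3.33 in the authors' deposited table and an H3.3 ratio of 3.17. The H3.3 ratio had a correlation of 0.28 with the RNA mean level of the authors' deposited table.

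The 6 genes with lower RNA had H3.3 ratios like those of the rest. Their median was 2.06, with 3 of 6 at or above 2, and the 190 genes with higher RNA had a median of 1.95, with 84 at or above 2. Bbc3, which encodes the pro-apoptotic PUMA, went from 1.16 to 2.71 (2.33) while its RNA log2 fold change in the authors' deposited table was -1.39. Rhov had 0.907 and 2.10 (2.32), and Ier5l 0.850 and 1.83 (2.15). The zinc finger genes Zbtb26, Zkscan14 and Zfp273 had 1.10 and 2.16 (1.97), 1.47 and 2.77 (1.88) and 0.925 and 1.56 (1.68).

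The other targets at these 6 genes are set beside those at the rest. Their median H3S31ph ratio was 1.32, against 3.91 at the genes with higher RNA. Divided by the H3.3 ratio of the same gene, H3S31ph gave 0.431 to 0.694, below 1 at all 6, while 24 of the 190 others were below 1 and their median was 2.08. Their median H3K27ac ratio was 0.776, against 1.17, and their median H3K36me3 ratio, a mark left along transcribed genes, was 1.04, against 1.62. The median ratio was 1.89 against 2.59 for H3S28ph, with the 6 genes between 0.734 and 3.06, and 1.003 against 1.004 for H3K36me2. With 6 genes and 1 library per time, these are values set side by side without a test. Where the line at 1 falls depends on the scale of the libraries, which is not known.

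**Figure D4:**
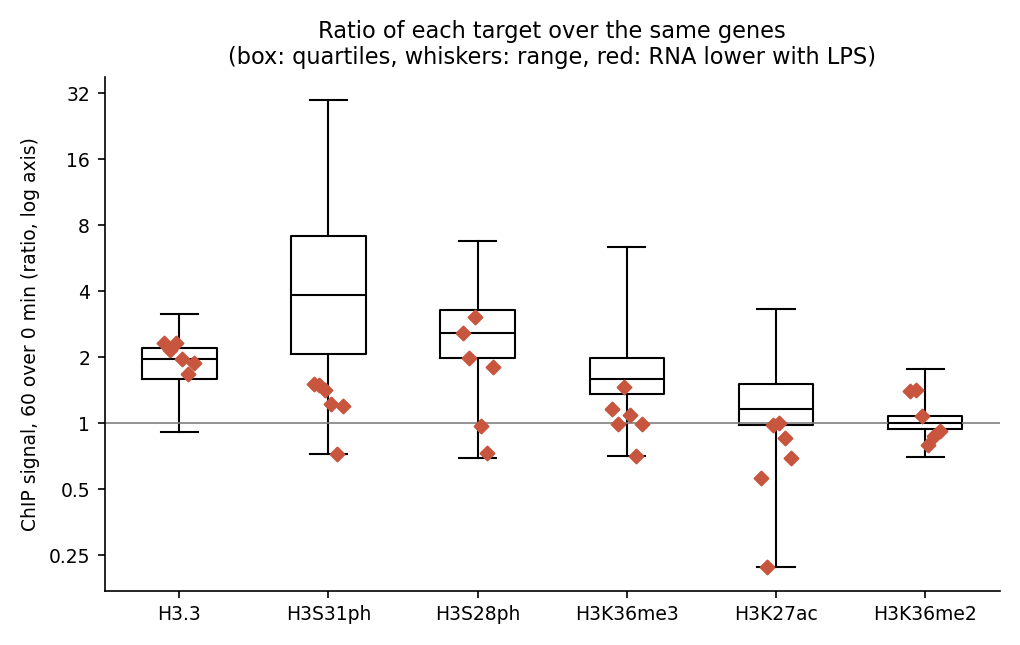
Boxes give the quartiles and median, and whiskers the range, of the ratio of ChIP signal at 60 over 0 min (log axis) over the 196 genes for each of the 6 targets, 1 library per target and time. Red diamonds are the 6 genes with lower RNA, which lie between 1.68 and 2.33 for H3.3 and at or below 1.51 for H3S31ph.

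Over all 196 genes H3.3 had the narrowest range of ratios but for H3K36me2. Its highest ratio was 3.47 times its lowest, against 2.53 for H3K36me2, 8.99 for H3K36me3, 9.71 for H3S28ph, 15.1 for H3K27ac and 41.1 for H3S31ph. The median ratio was 1.004 for H3K36me2 with quartiles of 0.938 and 1.08, 1.16 for H3K27ac, 1.59 for H3K36me3, 2.58 for H3S28ph and 3.86 for H3S31ph, beside 1.96 for H3.3. H3S28ph can lie on any form of H3. Each target was scaled in its own libraries, so medians of different targets are not levels on one axis.

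Set against the H3.3 ratio of the same gene, H3S31ph was higher at 166 genes and lower at 30, with a median of 2.02. A difference in scale between the libraries would move every quotient alike, so a quotient of 1 is no fixed line. The quotient was at least 10 at 9 genes. It was 18.6 at Cxcl1, 17.9 at Cxcl2, 17.6 at Tnf, 13.2 at Tnfaip3, 12.7 at Nfkbia and 11.1 at Irf1, an interferon regulatory factor. At Cxcl1 nearly the whole of the H3S31ph ratio, 19.4, stood over an H3.3 ratio of 1.04. At Ccl3 an H3S31ph ratio of 5.42 stood over 3.17, a quotient of 1.71. At Ccl12 (0.721), Map3k8 (0.655) and Il6 (0.816) the H3.3 ratio was the larger. H3K27ac and H3K36me3 had median quotients of 0.653 and 0.851, and H3K36me2 0.511.

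Among the other 5 targets, H3S31ph and H3K27ac signals ordered genes most like the H3.3 ratio did. Across the 196 genes the H3.3 ratio had a Spearman correlation of 0.71 with H3S31ph signal at 0 min and of 0.65 with H3K27ac signal at 0 min. It was 0.39 with H3K36me3, 0.05 with H3K36me2 and -0.29 with H3S28ph at 0 min. At 60 min it was 0.48 with H3S31ph, 0.61 with H3K27ac, 0.44 with H3K36me3, -0.02 with H3K36me2 and -0.19 with H3S28ph, so the relation was not confined to signals before LPS. With the 60 over 0 min ratios it was 0.30 for H3S31ph, 0.18 for H3K36me3, -0.04 for H3K27ac, -0.03 for H3S28ph and -0.22 for H3K36me2. H3.3 signal at 0 min itself had a correlation of only 0.18 with H3K27ac at 0 min and 0.16 with H3S31ph at 0 min, while H3.3 signal at 60 min had 0.67 and 0.71. The correlations of the ratio may therefore restate those of the 60 min library. Whether the 2 H3.3 libraries differ in enrichment was not tested. The points share their 2 H3.3 libraries, and the correlations are descriptions across genes of 1 library per target and time.

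In 4 groups of 49 genes by H3K27ac signal at 0 min, from low to high, the median H3.3 ratio was 1.45, 1.75, 2.06 and 2.19. In the lowest group 6 of 49 genes were at or above 2 (12.2%), then 14 (28.6%), 28 (57.1%) and in the highest 39 (79.6%), against 44.4% overall. The median H3.3 signal at 0 min hardly differed, at 1.15, 1.21, 1.26 and 1.28, and that at 60 min was 1.62, 2.09, 2.77 and 2.95. The correlation with H3K27ac at 0 min was 0.64 among the 98 genes in the lower part of the RNA mean level of the authors' deposited table and 0.57 among the 98 in the upper part. The correlation with the RNA log2 fold change of the authors' deposited table was -0.03 and -0.01 among the genes of lower and higher H3K27ac at 0 min.

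Named genes show both the pattern and its exceptions. Klf6 and Ccl3, with H3K27ac signals of 26.2 and 16.2 at 0 min, had H3.3 ratios of 2.78 and 3.17, and Gem and Dusp8, with 0.850 and 0.949, had 0.913 and 0.933. Bbc3, with 14.5, had 2.33. Against the order, Tnf had 9.91 and a ratio of only 1.35, while Phlda1 had 1.40 and a ratio of 2.74, and Gm6377 0.844 and 2.59.

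**Figure D5:**
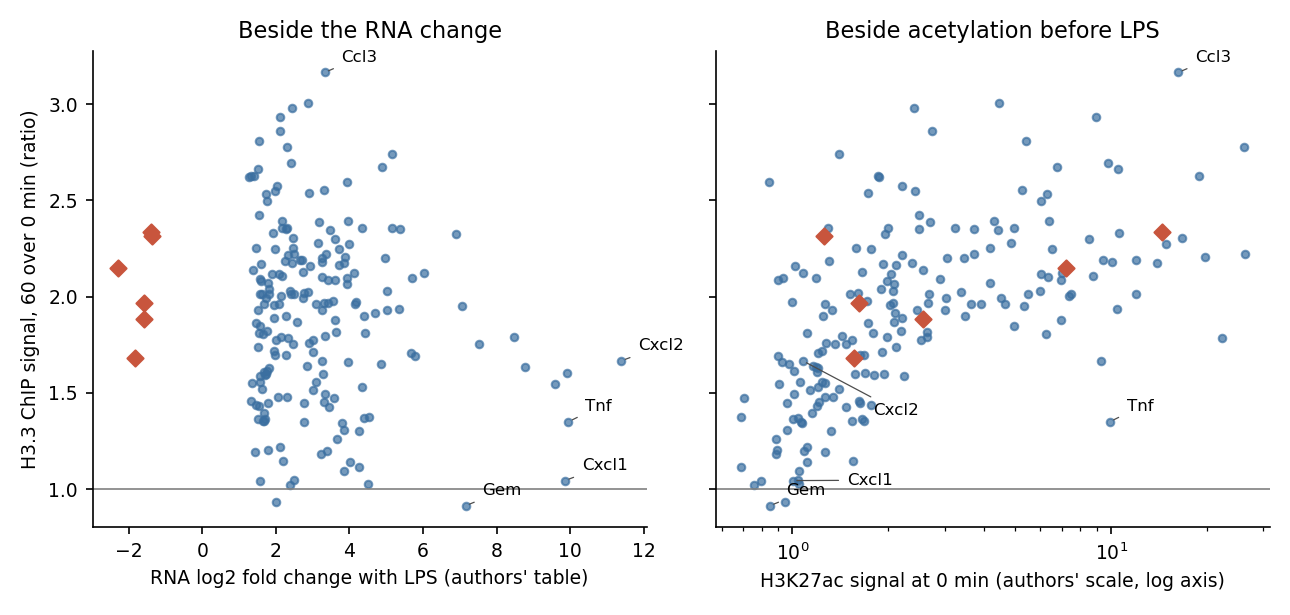
Both panels plot the ratio of H3.3 signal at 60 over 0 min for the 196 genes, on the left against the RNA log2 fold change of the authors' deposited table and on the right against H3K27ac signal at 0 min (log axis, authors' scale). Red diamonds are the 6 genes with lower RNA, the left panel has a Spearman correlation of -0.06 and the right of 0.65, and Tnf lies under the trend on the right.

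Gene length was related to the H3.3 ratio only weakly, at -0.18, and to the signal at 0 min at -0.13. From the shortest to the longest of 4 groups of 49 genes, the median H3.3 signal at 0 min was 1.26, 1.22, 1.26 and 1.16, and the median ratio 2.03, 1.93, 1.89 and 1.81. The signal was thus not proportional to gene length.

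The authors' deposited table gave RNA of edited lines at the same genes. It covers RAW264.7, a mouse macrophage-like line, and the lines 264 and 3205 made from it. The set with RAW264.7 had 2 libraries per line and time. A second set of line 3205 libraries at 60 min is also in the series and is not counted here. The series describes hypomorphic lines and double knockouts of the H3.3 genes H3f3a and H3f3b, and which line is of which kind is not in the labels. For 194 of the 196 genes the authors' deposited table had a fold change at 60 min of LPS. Some of these, such as Cxcl1 for line 264, had no adjusted p. In the authors' deposited table line 264 was lower than RAW264.7 with an adjusted p below 0.05 at 17 genes, and line 3205 at 14. Of all genes with an adjusted p, 1.86% were lower in line 264 and 1.32% in line 3205 at that threshold. The 194 genes were listed for their LPS response in primary macrophages, so these shares are no result about H3.3. A gene outside these counts is not thereby unchanged. Malt1 was outside them in line 264, at a log2 difference of -1.32 with a standard error of 0.258. The change against which the authors' adjusted p was tested is not given in the headers. In 4 groups by H3.3 ratio, from low to high, the genes lower in the authors' deposited table numbered 2, 4, 3 and 8 for line 264 and 2, 4, 2 and 6 for line 3205. Those higher in the authors' deposited table numbered 2, 1, 1 and 1 for line 264 and 1, 2, 0 and 1 for line 3205. The share of all tested genes that were higher is not given here, so nothing is read from these counts. Across the 194 genes the H3.3 ratio had a correlation of -0.09 with the log2 difference of line 264 from RAW264.7 and of 0.03 with that of line 3205 in the authors' deposited table. Both comparisons share the RAW264.7 libraries.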

How the data were processed

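The members, gene lists and comparisons were chosen with earlier results of these data known. The deposited H3.3 signal per gene, and that of the other 5 targets, is in the authors' own scale, which no label or header used here states. The build is mm10, and the ChIP tools are deepTools 2.5.4, SAMtools 1.5, Bowtie2 2.3.4.1 and Picard 2.14.0, per the submitters' processing notes. For RNA these name Trim Galore 0.5.0, STAR 2.4.2, featureCounts of Subread 1.4.6, and DESeq2 with R 3.4.0. Per the file headers the authors give log2 fold changes, p-values with their adjustment, and a mean normalized RNA level across libraries as a signal. The time behind the primary macrophage fold changes is not stated, and both tables hold the same values for shared genes. The 24 columns of single cell line libraries were not used here, nor were the input libraries.

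The ratio is the signal at 60 over that at 0 min, with no pseudocount and no filter. No test was run, since there was 1 library per time, and a ratio of at least 2 was counted. Correlations are Spearman's across genes, with no p. Of the 196 genes, 195 were matched to RefSeq by gene ID and 1 by a synonym, and 151 had a promoter window. Genes were named by a rule: the 8 largest and 8 smallest ratios above both lower quartiles of signal, the 5 highest and lowest signals at each time, the largest, middle and smallest ratio of each list, a fixed panel, every gene with lower RNA and every ratio below 1. Others named here were chosen after their values were seen, and an item withheld for evaluation is not reported here. Scripts were tested on simulated data and ran in Python 3.11.15 with pandas 2.3.3, numpy 2.4.6, scipy 1.17.1 and matplotlib 3.10.9.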

Additional observations from a re-analysis of the deposited data

How the results depend on the processing

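No paired analysis was possible because there was 1 library per time and no test. The median H3.3 ratio (1.96) was 1.90 as a ratio of summed signals and 1.95 to 1.99 with the genes of each table alone, the genes of both, genes with higher RNA only, a filter on low signal, division by the median H3K36me2 ratio, or 1 gene per locus. Most of these could move it little. The subsets by table and by RNA kept 190 to 195 of the 196 genes. The median H3K36me2 ratio was 1.004, and dividing by it does not test the scale of the H3.3 libraries. A pseudocount of 1, which is close to the signals themselves, gave 1.53, left 3 genes at or above 2 in place of 87 and lowered the medians of all 12 lists, to 1.21 to 1.71, with a rank correlation of 0.92 to the medians without it. The filter on low signal kept 121 genes, all with a ratio above 1. It also lowered the correlation of the H3.3 ratio with the H3S31ph ratio from 0.30 to 0.13 and with gene length from -0.18 to -0.031, and it removes genes partly by their signal at 60 min. The correlation of the ratio with H3.3 signal at 0 min went from -0.09 to 0.11 with a pseudocount of 1. The correlation with H3K27ac at 0 min (0.65) was 0.58 to 0.71 under the alternatives tried, which were chosen for it after the data were seen, as was 1 gene per locus. The depth of the ChIP libraries is unknown, so no interval can be given for any ratio.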
